A study of Mus musculus with 2 samples.

Results

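The naive pluripotency transcription factors are the regulators that hold mouse embryonic stem cells in an unrestricted, pre-implantation-like state. A list of 10 of them (Pou5f1, Sox2, Nanog, Esrrb, Tfcp2l1, Zfp42, Klf2, Klf4, Klf5 and Tbx3) was looked up by gene symbol in an RNA-seq table of 18877 genes, and 9 had an entry. Tbx3 had none and was not analysed here. The table describes mouse primordial germ cells (PGCs), the founder cells of eggs and sperm, from C57BL6 embryos at embryonic day 9.5 (E9.5). The PGCs were collected through the surface antigen SSEA1, received no treatment, and, according to the study's methods, came from female embryos. The methods allow either flow cytometry with CD61 and SSEA1 or magnetic beads with SSEA1 alone, and which was used for these libraries is not stated. There was 1 group, E9.5 PGC, with 2 libraries called replicate 1 and replicate 2. The methods call the RNA-seq samples biological replicates, and neither they nor the labels say whether these came from separate litters or sorts. Each library was made from a sorted pool of cells, in which fewer expressing cells and less RNA per cell cannot be told apart. The study made these libraries as an in vivo reference for PGC-like cells grown in culture, and no other stage, culture or tissue was analysed here.

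Pou5f1 (also called Oct4), Sox2 and Nanog form the core of the pluripotency circuit: POU5F1 and SOX2 bind DNA side by side at composite motifs, and NANOG joins them at many of the same enhancers. Esrrb, Tfcp2l1, the KLF factors and Tbx3 form the outer, signal-dependent layer, through which LIF, WNT and BMP signals sustain the naive state, and Zfp42 (Rex1) is a widely used reporter of that state. The circuit is taken down as the epiblast prepares for gastrulation, and mouse PGCs, which arise from the epiblast, again express several of its factors, with Pou5f1 and Nanog being textbook genes of the early germ line.

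Levels were read as TPM, a relative abundance in which reads are divided by gene length and scaled to a common total, so that genes can be compared. Where a pair of values is given, the first is replicate 1 and the second is replicate 2. Reads behind each value were recovered from the TPM and the exonic length of each gene, and gave totals of 15912470 reads in replicate 1 and 5458687 in replicate 2. Intervals given with a level are exact Poisson 95% intervals. They cover counting error only, because amplified reads are not independent molecules. Beside the label, 12 PGC marker genes were read. All 12 had at least 1 TPM in both libraries, a level that 60.0% of all genes reached. All 12 also lay above the median of all genes, as 45.2% of all genes did. The list was chosen with earlier results of these data known and holds Itgb3, which encodes CD61. It is therefore no independent check of the label, and it does not test the embryonic day. Pou5f1, itself a germ-line gene, was not on that list and was low. The blood genes Hba-x, Hbb-y and Hbb-bh1, which encode embryonic globins, were also abundant, with Hba-x at 2331 and 2065 TPM.

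The 9 factors were not expressed at a common level. Zfp42 stood at the top with 276 and 272 TPM. Pou5f1 had the lowest mean, with 1.54 and 1.46 TPM, although Klf4 was lower in replicate 2 at 1.18 TPM. Zfp42 exceeded Pou5f1 by 179-fold in replicate 1 and by 186-fold in replicate 2, on 33 and 11 reads of Pou5f1. Between them, in falling order of mean TPM, came Sox2, Klf2, Nanog, Klf5, Esrrb, Tfcp2l1 and Klf4. All 9 of the 9 had at least 1 TPM in both libraries, against 60.0% of all genes in the table. In replicate 2 the Poisson intervals of Pou5f1 and Klf4 reached below 1 TPM, to 0.731 and 0.608 TPM. In both libraries 7 of the 9 lay above the median of all genes, against 45.2% of all genes. The exceptions were Klf4 and Pou5f1, and the call for Pou5f1 turned when the reads of an overlapping gene were added to it, as described with that gene.

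**Figure D1:**
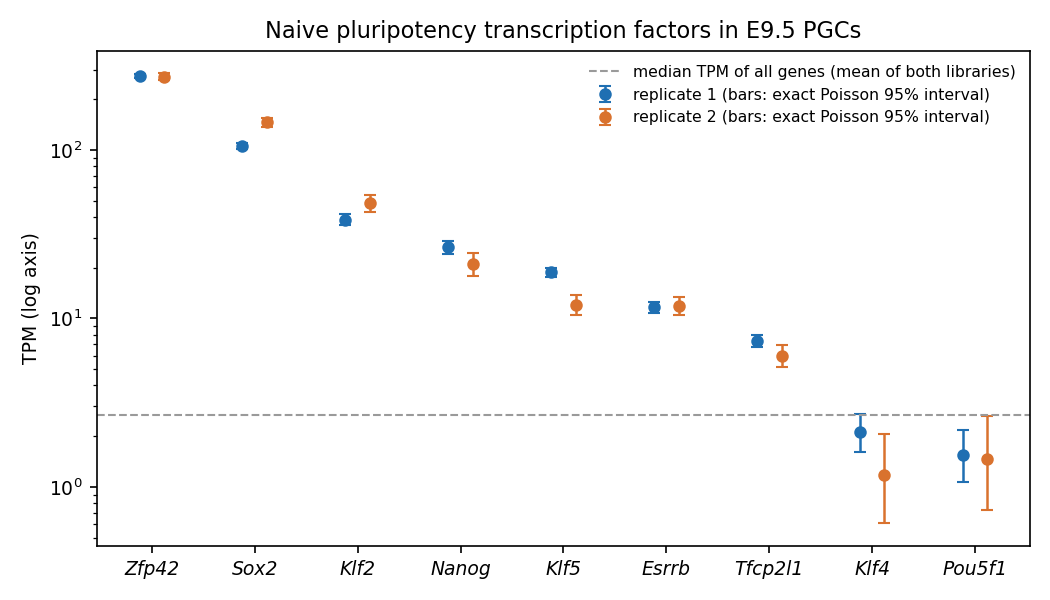
TPM (log axis) of the 9 measured factors in each library of E9.5 PGCs, ordered by mean. Points are single libraries, bars are exact Poisson 95% intervals from recovered reads, and the dashed line is the median of all 18877 genes. Zfp42 and Sox2 exceed 100 TPM in both libraries, whereas Klf4 and Pou5f1 lie below the dashed line.

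Neighbours in this order were called apart only where both libraries of the higher gene exceeded both libraries of the lower one and their Poisson intervals did not overlap in either library. By that rule 6 of the 8 steps in the order held. Klf5 could not be placed above Esrrb, since the ratio was 1.61 in replicate 1 and 1.02 in replicate 2. Klf4 could not be placed above Pou5f1, since the ratio was 1.36 in replicate 1 and 0.804 in replicate 2. With the length of the longest transcript in place of all exonic bases, Nanog could not be placed above Klf5 either, as their ratio fell to 0.920 in replicate 1 and 1.13 in replicate 2. With all exonic bases the step from Tfcp2l1 down to Klf4 was the widest, at 3.49-fold in replicate 1 and 5.09-fold in replicate 2. With the longest transcript the step below Tfcp2l1 led to Pou5f1, at 2.93-fold and 2.52-fold. The step from Sox2 to Klf2 was then 2.75-fold and 3.03-fold, and so wider in replicate 2.

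The start-site regions of 4 genes are shown: the POU and SOX partners Pou5f1 and Sox2, Nanog, and Zfp42 as the gene with the highest level. They are RefSeq sequences on GRCm38.p6, each covering the 250 bases before the transcription start that RefSeq annotates, written 5′ to 3′ on the strand of the gene. Capitals mark exact matches, on either strand, to the POU motif TTTGCAT or the SOX motif CATTGT.
Zfp42, chr8:43307010-43307259, minus strand: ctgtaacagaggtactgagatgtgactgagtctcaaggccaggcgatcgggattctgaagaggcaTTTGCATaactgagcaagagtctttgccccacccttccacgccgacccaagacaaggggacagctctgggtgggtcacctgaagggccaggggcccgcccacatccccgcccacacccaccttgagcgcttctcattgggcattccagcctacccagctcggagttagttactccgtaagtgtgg
Nanog, chr6:122707239-122707488, plus strand: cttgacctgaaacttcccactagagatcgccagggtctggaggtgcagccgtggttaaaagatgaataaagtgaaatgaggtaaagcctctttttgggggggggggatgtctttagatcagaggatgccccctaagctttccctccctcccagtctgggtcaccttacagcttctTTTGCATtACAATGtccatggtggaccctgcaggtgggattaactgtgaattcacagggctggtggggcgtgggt
Sox2, chr3:34649745-34649994, plus strand: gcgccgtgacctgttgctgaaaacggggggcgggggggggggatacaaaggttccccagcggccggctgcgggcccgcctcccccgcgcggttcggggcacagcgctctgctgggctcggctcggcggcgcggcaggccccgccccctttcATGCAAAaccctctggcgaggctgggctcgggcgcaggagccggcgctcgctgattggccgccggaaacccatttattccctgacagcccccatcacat
Pou5f1, chr17:35505782-35506031, plus strand: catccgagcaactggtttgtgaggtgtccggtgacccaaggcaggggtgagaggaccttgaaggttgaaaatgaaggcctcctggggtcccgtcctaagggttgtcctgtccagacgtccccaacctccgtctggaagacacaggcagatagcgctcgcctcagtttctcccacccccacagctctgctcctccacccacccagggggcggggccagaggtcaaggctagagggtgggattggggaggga

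In Nanog a POU match at positions -75 to -69 relative to the start was separated by 1 base from a SOX match on the other strand at -67 to -62. In Zfp42 the POU match at -185 to -179 was part of the longer octamer ATTTGCAT, and in Sox2 a match lay on the other strand at -99 to -93, counted from a RefSeq start that is 410 bases upstream of the GENCODE start of the gene. The Pou5f1 region shown held neither motif. Over windows of 250 bases before to 50 after each start, POU matches occurred in 4.63% of 32851 RefSeq windows and 5.24% of 27025 genes, SOX matches in 12.6% and 14.3%, and the octamer in 1.74% and 1.97%. Windows were given for 8 of the 10 factors, 11 windows in all, and 3 of the 8 genes (Sox2, Nanog and Zfp42) had a POU match. SOX matches occurred in 3 genes, Nanog, Esrrb and a downstream start of Pou5f1. The KLF motif GGGNGTGG was present in Pou5f1, Nanog, Tfcp2l1 and Zfp42 and in 17.6% of all windows and 19.7% of genes. The ESRR motif AAGGTCA, the STAT motif TTCCNGGAA and the YY1 motif AAGATGGC were in none of the 8 genes. They occurred in 4.72%, 1.15% and 2.75% of all windows, and in 5.38%, 1.35% and 3.19% of genes. Klf2 and Klf4 had a window but no match to any of these motifs. A match describes letters and not binding, the motifs were picked with these sequences in view, and promoters of Klf5 and Tbx3 are named only. Whether matches bear on the levels was not tested.

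Pou5f1, the POU-domain factor without which the inner cell mass does not form, spans chr17:35506018-35510772 on the plus strand of GRCm38 (ENSMUSG00000024406.16) with 2248 exonic bases. Its 33 reads in replicate 1 gave an interval of 1.06 to 2.17 TPM, and its 11 reads in replicate 2 gave 0.731 to 2.62 TPM. The mean was 1.504 ± 0.0570 TPM (SD, n = 2), which put the gene at the 39.6th percentile of the table in replicate 1 and the 39.7th in replicate 2. Both libraries were low and they overlapped. In the same libraries Nanos3, a germ-cell RNA-binding factor, had 473 and 453 TPM, and Ifitm3, an early germ-cell surface gene, had 1518 and 1572 TPM. The upper bounds of both Pou5f1 intervals lay below 3 TPM.

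The annotation of the Pou5f1 locus bears on that value. Gm19553, a gene annotated on the opposite strand, shares 317 bases with Pou5f1 exons, which is 14.1% of them, and had 31 and 11 reads (6.60 and 6.66 TPM). No source says if reads were counted by strand, or how reads overlapping both genes were counted. Reads in the shared exons therefore cannot be assigned to one gene with certainty. Any that were counted for neither gene are missing from both counts, so the sum that follows is an alternative count and not an upper bound. Giving every Gm19553 read to Pou5f1 as well raised Pou5f1 to 64 and 22 reads, or 2.96 ± 0.0478 TPM (SD, n = 2), which was below Tfcp2l1 but above Pou3f2, the highest gene of its family. On the log2(TPM + 1) scale it then had 1.998 and 1.97, above the medians of all genes at 1.89 and 1.85, so that 8 of the 9 factors lay above the median in place of 7. Among all 75-base stretches of Pou5f1 transcripts, 7.36% occurred in another annotated transcript, every one of them in Gm19553. There are 5 pseudogenes with at least 80% identity to Pou5f1 over at least 200 bases, the closest being Gm5712 at 87.2% over 1074 bases, and none had an entry in the table. How reads matching several places were counted is not stated, and the part of these copies in the level of Pou5f1 was not tested.

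**Figure D2:**
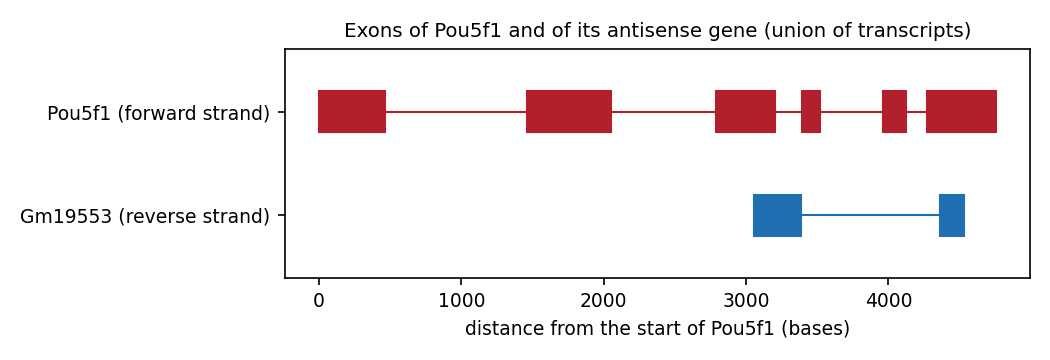
Exons of Pou5f1 (forward strand) and of the antisense gene Gm19553 (reverse strand), each the union of annotated transcripts, drawn to scale against distance in bases from the start of Pou5f1. The exons of Gm19553 overlap later exons of Pou5f1, with 317 bases in common.

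Sox2, the HMG-box partner of POU5F1, is a single exon of 2057 bases at chr3:34650405-34652461 on the plus strand (ENSMUSG00000074637.7). It had 106 TPM in replicate 1 (2064 reads, interval 101 to 110) and 146 TPM in replicate 2 (1006 reads, interval 137 to 156), with a mean of 126 ± 28.8 TPM (SD, n = 2). The libraries did not overlap in their counting error. Sox2 exceeded its partner Pou5f1 by 68.4-fold in replicate 1 and by 99.9-fold in replicate 2. With the Gm19553 reads added, Pou5f1 would have 2.99 and 2.93 TPM, and the ratios of Zfp42, Sox2 and Nanog to it would be smaller. No 75-base stretch of Sox2 occurred in another annotated transcript. Sox2 is also a gene of neural progenitors, so neural markers were read beside it: 3 of 7 listed markers had an entry, and their summed level was 6.41 TPM in replicate 1 and 7.05 TPM in replicate 2. Pax6 had 3.55 and 3.56 TPM, Nes had 1.56 and 2.05 TPM, and Tubb3 had 1.30 and 1.44 TPM. Sox1, Neurog2, Olig2 and Zic1 had no entry. In both libraries Sox2 lay far above each of them, and the part of neural RNA in its level was not tested.

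Nanog, the homeodomain factor of the core, lies at chr6:122707489-122714633 on the plus strand (ENSMUSG00000012396.12, 2242 exonic bases). It had 26.4 TPM in replicate 1 (562 reads, interval 24.2 to 28.6) and 20.9 TPM in replicate 2 (157 reads, interval 17.8 to 24.5), a mean of 23.7 ± 3.84 TPM (SD, n = 2). The intervals overlapped narrowly. Nanog was 17.1-fold above Pou5f1 in replicate 1 and 14.3-fold above it in replicate 2, and Sox2 was 4.003-fold and 6.98-fold above Nanog. Nanog shares 1.59% of its 75-base stretches with the pseudogene Nanog-ps1, which had no entry. Within the core, both libraries therefore gave the order Sox2, Nanog, Pou5f1.

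Zfp42, a zinc-finger gene of the YY1 family, lies at chr8:43295063-43306980 on the minus strand (ENSMUSG00000051176.6, 1881 exonic bases). It had 4936 and 1711 reads, intervals of 268 to 284 TPM and 259 to 285 TPM, and a mean of 274 ± 2.81 TPM (SD, n = 2). It ranked 602nd and 600th of the 18877 genes. Its level is uncertain through a copy: the pseudogene Zfp42-ps1 on chromosome 15 (chr15:93679160-93679649, 490 exonic bases) matches Zfp42 at 98.1% over 266 bases. Zfp42-ps1 had 179 TPM (835 reads) and 157 TPM (257 reads) in the table, and 4.36% of the 75-base stretches of Zfp42 occur in it. Whether those reads came from Zfp42 was not tested. With all of them added, Zfp42 had 318 ± 6.93 TPM (SD, n = 2). Zfp42 was the highest of the 9 by either count.

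Esrrb, an orphan nuclear receptor that is a target of WNT signalling in naive cells, lies at chr12:86361117-86521628 on the plus strand (ENSMUSG00000021255.17, 6047 exonic bases). It had 11.6 TPM (667 reads) and 11.9 TPM (240 reads), a mean of 11.7 ± 0.190 TPM (SD, n = 2), and the libraries overlapped. Tfcp2l1, a CP2-family factor downstream of LIF and STAT3, lies at chr1:118627945-118685168 on the plus strand (ENSMUSG00000026380.10, 9438 exonic bases). It had 7.35 TPM (659 reads) and 5.99 TPM (189 reads), a mean of 6.67 ± 0.958 TPM (SD, n = 2), with intervals of 6.80 to 7.93 and 5.17 to 6.91 TPM that overlapped. Both libraries of Esrrb exceeded both libraries of Tfcp2l1, by 1.58-fold in replicate 1 and 1.98-fold in replicate 2.

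The KLF factors, zinc-finger proteins that share a GC-rich binding motif and can replace each other in part in stem cells, spread over a wide range. Klf2 (chr8:72319033-72321656, plus strand, ENSMUSG00000055148.7) had 38.4 TPM (675 reads, interval 35.6 to 41.5) and 48.3 TPM (298 reads, interval 42.9 to 54.1). Klf5 (chr14:99298691-99315036, plus strand, ENSMUSG00000005148.8) had 18.7 TPM (926 reads, interval 17.5 to 19.98) and 12.1 TPM (210 reads, interval 10.5 to 13.8). Klf4 (chr4:55527143-55532466, minus strand, ENSMUSG00000003032.8), one of the original reprogramming factors, had 2.10 TPM (61 reads, interval 1.61 to 2.70) and 1.18 TPM (12 reads, interval 0.608 to 2.06). The order Klf2, Klf5, Klf4 held in both libraries with no overlap. Klf2 exceeded Klf4 by 18.3-fold in replicate 1 and by 41.0-fold in replicate 2, and Klf5 exceeded Klf4 by 8.90-fold and 10.3-fold. Klf4 rested on 12 reads in replicate 2, so its level there is imprecise.

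Klf2 and Klf4 are also expressed by endothelium, and 5 of 6 endothelial markers had an entry. Their summed level was 12.9 TPM in replicate 1 and 11.0 TPM in replicate 2, most of it from Pecam1 (8.23 and 9.99 TPM), which pluripotent and germ cells can also express. Emcn had 2.12 TPM (109 reads) in replicate 1 and no read in replicate 2, Tek had 1.29 and 0.635 TPM, Kdr had 0.850 and 0.166 TPM, and Cldn5 had 0.446 and 0.212 TPM. Cdh5 had no entry. In replicate 2 Klf2 and Pecam1 were higher, whereas Klf4, Emcn, Tek, Kdr and Cldn5 were lower. The part of endothelial RNA in the levels of Klf2 and Klf4 was not tested.

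The factors differed between the libraries by less than 2-fold. On the log2(TPM + 1) scale, which understates differences of low genes, 0 of the 9 were more than 2-fold apart, against 10.2% of all genes. The differences, as replicate 2 minus replicate 1, ran from -0.59 for Klf5 to 0.47 for Sox2, with a median of -0.05 over the factors and -0.01 over all genes. Counting error alone was exceeded, with Poisson intervals apart, by 3 of the 9, against 24.7% of the 18748 genes with recovered reads. Sox2 (1.39-fold) and Klf2 were higher in replicate 2, and Klf5 (0.645-fold) was lower. In all, 3 factors were higher and 6 lower in replicate 2, and of the 6 only Klf5 had Poisson intervals apart. Directions were not counted over all genes, so no direction of the set is read from these counts. The differences are between 2 libraries of 1 condition, with no test.

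**Figure D3:**
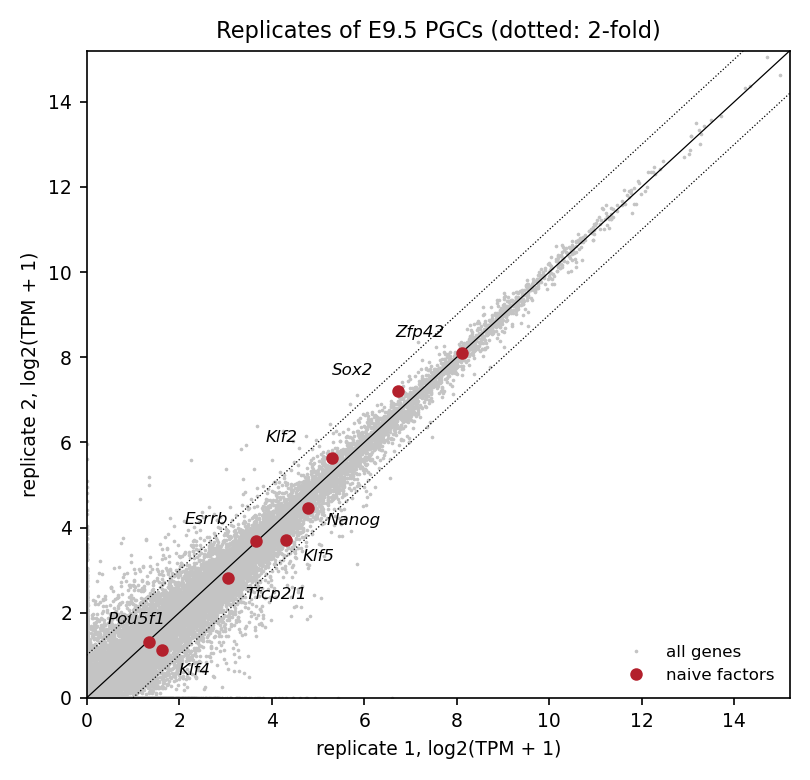
Level of every gene in replicate 1 (x axis) and replicate 2 (y axis) as log2(TPM + 1), with the 9 factors in red, the line of equal levels solid and 2-fold differences dotted. All 9 factors lie between the dotted lines, with Sox2 and Klf2 above the solid line and Klf5 below it.

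As a set, the factors had a median log2(TPM + 1) of 4.30 in replicate 1 and 3.71 in replicate 2, a mean of 4.01 ± 0.42 (SD, n = 2), which is the level of Klf5. The median of all genes was 1.89 and 1.85. Zfp42 and Sox2 together made up 78.2% of the summed TPM of the 9 factors in replicate 1 and 80.4% in replicate 2. The summed level was 488 TPM and 520 TPM.

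All measured factors other than Nanog were next placed within their gene families, by mean TPM. Sox2 was first of 10 SOX genes with an entry, above Sox15 (44.2 and 20.1 TPM), a SOX factor of embryonic stem cells, and Sox4 (8.51 and 8.61 TPM). Klf2 was first of 15 KLF genes, above Klf8 (23.4 and 17.2 TPM) and the TGF-beta-inducible Klf10 (20.8 and 13.6 TPM). Klf5 had rank 4. Klf4 had rank 9, with rank 8 in replicate 1 and 10 in replicate 2. Zfp42 was first of the 3 YY1-family genes, above Yy1 itself (25.8 and 23.7 TPM) by 10.7-fold and 11.5-fold, with Yy2 at 2.72 and 6.26 TPM.

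Esrrb had rank 3 of 6 nuclear receptors, after the metabolic regulator Esrra (14.1 and 16.4 TPM) and Nr0b1 (17.2 and 12.1 TPM), a naive network gene also called Dax1. Tfcp2l1 had rank 3 of the 6 CP2 and grainyhead genes, after the epithelial factor Grhl3 (11.7 and 11.6 TPM) and Ubp1 (9.49 and 9.56 TPM). Pou5f1 had rank 2 of the 7 POU genes with an entry. The measured POU genes, 7 of 16 listed, were low. At least 1 TPM in both libraries was reached by 2 of the 7, against 60.0% of all genes. Above the median of all genes in both libraries lay 0 of the 7, against 45.2% of all genes. The neural factor Pou3f2 had 1.98 and 1.71 TPM, and Pou5f2, a POU gene of male germ cells, had 0.377 TPM (5 reads) and 2.36 TPM (11 reads). In replicate 2 Pou5f1 had rank 3, behind both.

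The T-box family, to which Tbx3 belongs, had 6 of 17 genes in the table. Mga, a T-box factor that represses germ-cell genes in stem cells, had 7.05 and 8.38 TPM. The others lay below 1 TPM in both libraries. Tbx4 had 0.897 TPM (29 reads) and 0.879 TPM (10 reads), and Tbx2 had 0.377 and 0.165 TPM. Eomes had no read in replicate 1 and 0.360 TPM (5 reads) in replicate 2. T and Tbx1 had no read in either library. For T, the mesoderm gene brachyury, the limit of a zero, 3 reads, corresponds to 0.136 and 0.388 TPM.

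**Figure D4:**
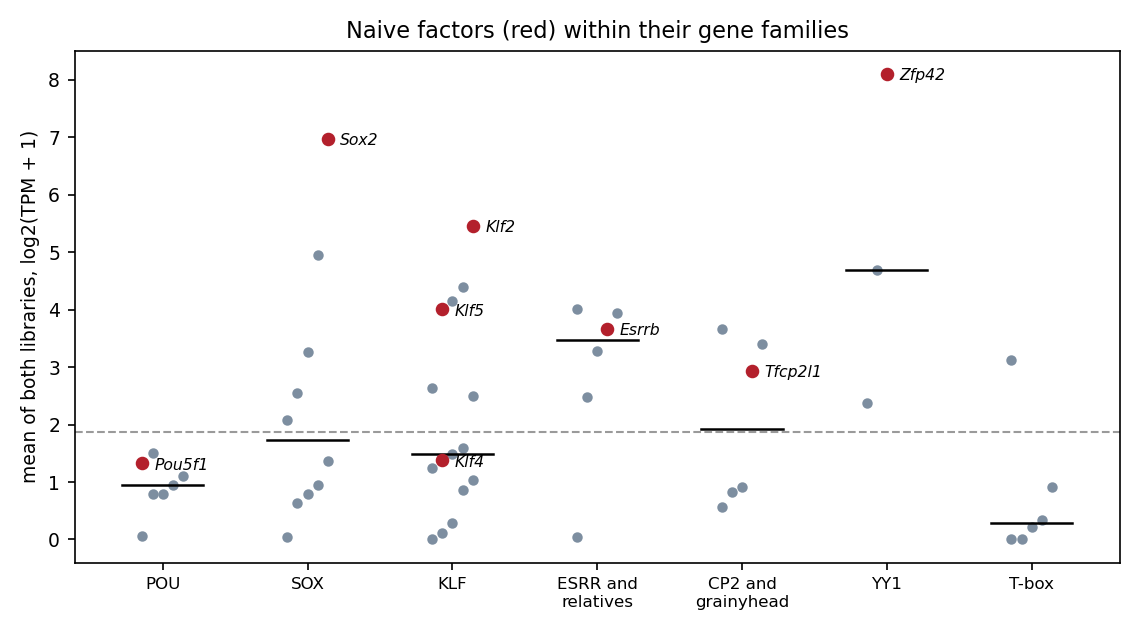
Mean over both libraries of log2(TPM + 1) for every measured gene of the families to which the factors belong, with the factors in red, other genes in grey, the family median as a bar and the median of all genes as a dashed line. Sox2, Klf2 and Zfp42 top their families, whereas no POU gene reaches the dashed line.

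Genes that work with the factors were read from lists of the same pathway. Of 20 other naive network genes, Dppa3, Prdm14 and Tfap2c were also among the PGC markers, so this list is not independent of that one. All 20 had an entry, and 19 had at least 1 TPM in both libraries (60.0% of all genes). Above the median of all genes lay 17 of the 20 (45.2% of all genes), with a list median of 4.19 and 4.04 on the log2(TPM + 1) scale. The highest were Dppa5a (20839 and 21320 TPM), an RNA-binding protein gene of pluripotent cells, Dppa3 (5013 and 5075 TPM), which shields methylated DNA in the zygote, and Dppa4 (160 and 147 TPM), a chromatin factor. The lowest were the RNA-binding gene Lin28a (2.32 and 2.84 TPM), Gbx2 (1.11 and 1.79 TPM), a homeobox target of STAT3, and Fgf4. Fgf4, a classical target of POU5F1 with SOX2, had no read in either library, and the same limit allows it up to 0.0988 and 0.281 TPM. Nanog, whose neighbour on the chromosome is Dppa3, was 190-fold below it in replicate 1 and 242-fold below it in replicate 2.

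Formative and primed genes, which are switched on as the naive state ends, were lower. Of 14 listed, 11 had an entry, 4 had at least 1 TPM in both libraries (60.0% of all genes) and 2 lay above the median of all genes (45.2% of all genes), and the list median was 0.59 in replicate 1 and 0.91 in replicate 2. The highest were the growth factor Fgf5 (3.62 TPM from 86 reads and 7.65 TPM from 64 reads), the WNT effector Lef1 (4.70 and 3.64 TPM) and the DNA methyltransferase Dnmt3a (3.10 and 2.26 TPM). Pou3f1, the POU factor of primed cells, had no read in replicate 1 and 1 read in replicate 2. The naive factors Zfp42, Sox2, Klf2, Nanog, Klf5 and Esrrb had more TPM in both libraries than any gene of this list, and Tfcp2l1 lay below Fgf5 in replicate 2.

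The inputs that feed the outer factors were uneven. Of 15 signalling genes 14 had an entry, 12 had at least 1 TPM in both libraries, against 60.0% of all genes, and 10 lay above the median of all genes, against 45.2%. Ctnnb1, the beta-catenin that relays WNT to Esrrb and Tfcp2l1, had 200 and 186 TPM, and the BMP targets Id3 and Id1 had 67.5 and 64.1 TPM and 31.9 and 28.6 TPM. Stat3, which relays LIF to Klf4 and Tfcp2l1, had 0.420 TPM (38 reads) and 0.0314 TPM (1 read), and its target Socs3 had 0.146 TPM (4 reads) and no read. Gsk3a, a kinase that restrains beta-catenin, had 1.81 and 1.44 TPM.

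Repressors of the network were read beside it. Of 9 listed, 8 had an entry, 6 had at least 1 TPM in both libraries, against 60.0% of all genes, and 5 lay above the median, against 45.2% of all genes, so the counts were near the background. The highest were Etv5 (43.0 and 38.8 TPM), an ERK-responsive ETS factor, Zfp281 (33.9 and 34.2 TPM), which drives the exit from the naive state, and Mbd3 (29.4 and 22.9 TPM), a subunit of the NuRD complex. The lowest were the Notch effector Rbpj (2.42 and 3.003 TPM), Gata6 (1.32 and 0.656 TPM), the primitive endoderm factor that antagonises Nanog, and Tcf7l1 (0.375 and 0.457 TPM), the repressor that beta-catenin removes from naive genes. Both libraries of Etv5 and of Zfp281 exceeded both libraries of Nanog, whereas the intervals of Mbd3 and Nanog overlapped.

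Other cell types that the sort could hold were read through their markers. The 12 PGC markers ranged from Itgb3 (6.01 and 6.84 TPM), which encodes the CD61 antigen, Prdm1 (7.84 and 6.11 TPM) and Kit (8.84 and 7.96 TPM) up to Dppa3. Mesenchyme and coelomic epithelium markers were low, with 6 of 7 in the table and none above 1.40 TPM in either library: Col3a1 had 1.06 and 1.40 TPM, Wt1 had 1.07 and 1.21 TPM, Twist1 had 0.905 and 1.29 TPM, Lhx9 had 1.12 and 0.914 TPM, Pdgfra had 0.147 and 0.806 TPM, and Col1a2 had 0.254 and 0.457 TPM. For gut endoderm 3 of 6 were in the table: Trh had 1.06 and 2.38 TPM, Foxa2 had no read and 0.505 TPM, and Foxa1 had no read in either library. Of the erythroid markers, the globin genes Hbb-y and Hbb-bh1 had 927 and 1025 TPM and 271 and 237 TPM. Klf1, the erythroid KLF factor, had 0.275 TPM (4 reads) and 1.56 TPM (8 reads). The part of RNA from blood cells in the levels of the factors was not tested.

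**Figure D5:**
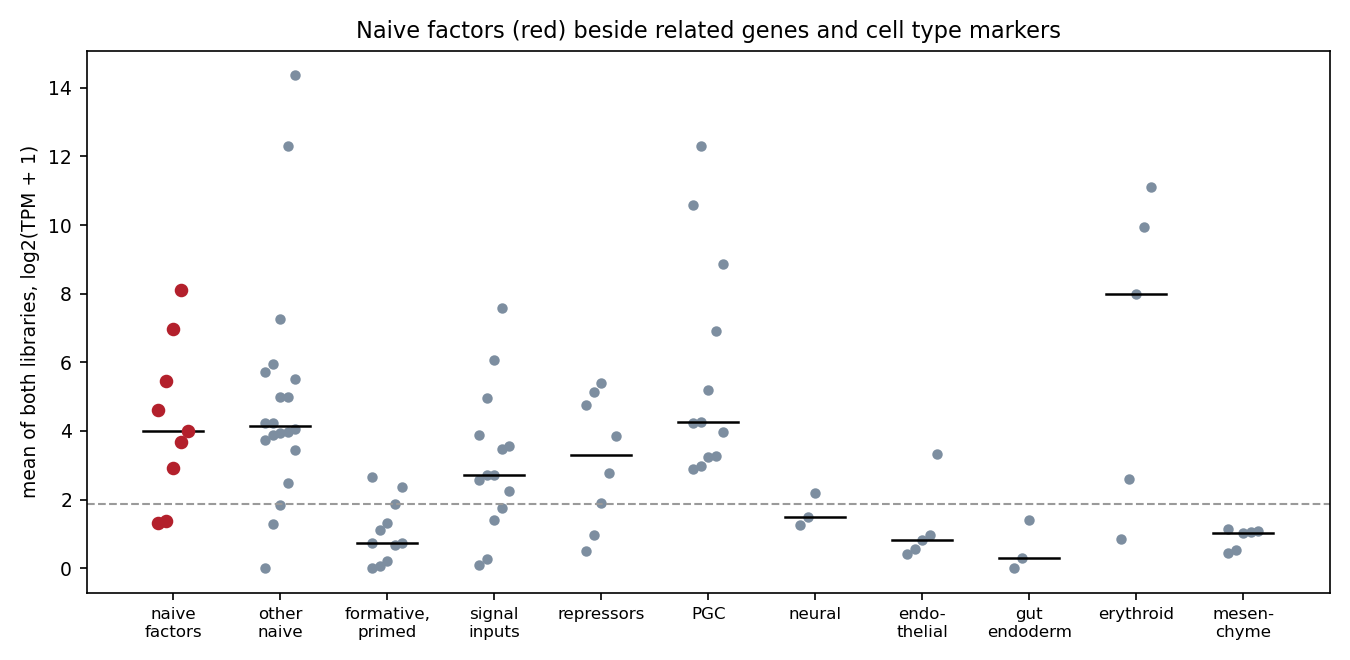
Mean over both libraries of log2(TPM + 1) for the 9 factors (red) and for the genes of 10 related lists (grey), with the median of the points of each list as a bar and the median of all genes as a dashed line. All factors except Klf4 and Pou5f1 lie above the dashed line, as do all 12 PGC markers, whereas the gut endoderm and mesenchyme markers lie below it.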

How the data were processed

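RNA-seq of 2 libraries of E9.5 PGCs was used. The authors mapped clean reads to mm10 with Hisat2, counted them per gene with featureCounts and deposited TPM. Versions, annotation and strand are not given in the sources used here. The submitters' processing notes also name Bowtie2, RSEM, DESeq2 and R 3.4.2, without roles. The methods describe Smart-seq2, the labels a NEBNext kit, so the library chemistry is uncertain. A table of 18877 symbols with 0 unmapped columns was joined to GENCODE M21 (18748 symbols with 1 identifier). TPM times exonic length gave whole multiples of 1 amount per library, taken as 1 read: 96.7% (replicate 1) and 95.8% (replicate 2) of values under 50 reads were within 0.02 of a whole number. Recovery was tested on data simulated with the same gene lengths, so that test cannot show which lengths the authors used. Each library sums to about the same TPM, so abundant genes lower all others.

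The factors and lists were chosen with earlier results of these data known. All factors are named. Also named are the 3 highest genes of each family, the 3 highest and 3 lowest of each other list, and for each factor the nearest protein-coding gene with an entry on either side. An item of the erythroid list is not reported here. With 1 group no test between groups was possible, and no p-value was computed. Alternatives changed the pseudocount (1 to 0.1), threshold, gene length, scaling and libraries. Python 3.11.15, pandas 2.3.3, numpy 2.4.6, scipy 1.17.1 and BLAST 2.17.0 were used.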

Additional observations from a re-analysis of the deposited data

How the results depend on the processing

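Alternatives were computed for 40 values, 89 in all, of which 55 stayed within the spread between replicates (or within 1.5 times, for counts), and 34 moved further. Leaving out replicate 1 or replicate 2 supplied 18 and 19 of the 55. For mean levels that outcome was fixed, since either of 2 libraries always lies within their SD of the mean. Rescaling TPM to 12679 protein-coding genes moved the median level of the factors from 4.01 to 4.50 on the log2(TPM + 1) scale and that of all those genes by 0.43, and left ratios within a library as they were. Using the longest transcript as gene length put Pou5f1 at 2.03 TPM, above Klf4 at 1.35 TPM, and took away the call between Nanog and Klf5, at 19.7 and 19.6 TPM. Adding the reads of the antisense gene or of the pseudogene, both chosen after seeing the data, gave 2.96 TPM for Pou5f1, with 8 factors then above the median of all genes, and 318 TPM for Zfp42. The count of factors above the median fell from 7 to 6 when the median was taken over genes with a mean of at least 1 TPM. With the threshold at 5 TPM, 7 of the 9 factors passed it in both libraries. No share of all genes is given for either alternative. Without replicate 1, Pou5f1 ranked 3 in its family and Klf4 ranked 10. Depth limited Pou5f1 and Klf4, with 11 and 12 reads in replicate 2. No paired analysis was possible because there is 1 group.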

Other observations

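The nearest measured protein-coding genes on either side of each factor did not share a common level with it. Of 18 such neighbours of the 9 factors, 12 had at least 1 TPM in both libraries, against 60.0% of all genes, which is near the background. In mean TPM 5 of the 18 exceeded their factor. Dppa3, 77.2 kb from Nanog, had 5013 and 5075 TPM, whereas Slc2a3, a glucose transporter gene 13.2 kb away on the other side, had 8.22 and 10.1 TPM. Tcf19, which begins 2.0 kb beyond Pou5f1, had 5.79 and 7.05 TPM, and the major histocompatibility gene H2-Q10, 31.5 kb before it, had 0.339 TPM and no read. Both libraries of Tcf19 exceeded both libraries of Pou5f1. Gm10282, 13.8 kb from Klf2, had 312 and 358 TPM, and Eps15l1 on the other side had 0.812 and 1.198 TPM. Triml2, 101.2 kb from Zfp42, had 14.7 and 16.9 TPM. Fat1 on its other side had 1.99 and 1.38 TPM. Dnajc19, 569.1 kb from Sox2, had 224 and 233 TPM, and Atp11b on its other side had 7.76 and 8.15 TPM. Beside Esrrb, Gpatch2l had 1.11 and 1.58 TPM and Angel1 had 0.0943 and 0.536 TPM. Beside Tfcp2l1, Clasp1 had 0.448 and 0.876 TPM and Inhbb had 0.198 TPM and no read. Rad23b, a DNA repair gene 134.9 kb from Klf4, had 13.6 and 13.0 TPM, and Pibf1, 44.2 kb from Klf5, had 5.52 and 2.99 TPM. Fam206a on the other side of Klf4 had 1.06 and 1.29 TPM, and Tbc1d4 on the other side of Klf5 had 0.589 and 0.156 TPM.

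For Tbx3, which had no entry, the nearest measured genes were Med13l (0.109 and 0.194 TPM) and Rbm19 (4.08 and 3.46 TPM).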
